A study of Mus musculus with 16 samples.

Results

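Azgp1 encodes zinc-alpha-2-glycoprotein, and its transcript was compared here in the right kidney of each of 5 male littermates, the wild-type mice W1 to W5. It was chosen from these same values, for the distance at which the kidneys lie from each other, so its own levels are given as a description with no test. All probes with the platform symbol Azgp1 were taken, which gave 1 probe of 20205, or 1 of the 9669 genes named by probes with a single symbol. Total RNA of W1, W2, W3 or W4 was hybridised against that of W5 on 16 two-colour microarrays, 4 per mouse, and each mouse lay in channel 1 on 2 of its arrays while W5 lay there on the other two. The mice shared a mixed background of C57BL/6 and 129Sv, were 88 ± 2 days old and per the labels were killed in the morning, between 8 and 10. No mouse was treated, and the comparison is among normal littermates. The labels name no second sample of a mouse. Differences between mice thus cannot be told apart from differences in taking the kidney or preparing its RNA.

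Zinc-alpha-2-glycoprotein is a secreted glycoprotein of plasma and other body fluids that was named for its precipitation with zinc salts. It has the fold of a major histocompatibility complex (MHC) class I heavy chain but works without beta-2-microglobulin and presents no peptide. It is known as a lipid-mobilising factor that promotes the breakdown of fat stores in adipocytes, and glucocorticoids raise its expression in fat. Liver, fat, prostate and several secretory epithelia make it. In the kidney it is known from tubule epithelium, and loss of the gene in mice has been linked to more fibrosis after kidney injury.

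The Azgp1 gene lies on the forward strand of chromosome 5, at chr5:137981521-137990233 in RefSeq's GRCm38.p6 annotation, and spans 8713 bases. The probe is annotated with 3 expressed sequence tag accessions of Azgp1, and its place in exons or untranslated regions is not given in the sources used here. The 250 bases before the annotated start of the gene, chr5:137981271-137981520, are shown because variation in the level of a transcript is often sought there; the arrays read the transcript and not this stretch. Capitals mark its single match to the CCAAT box, a common promoter motif.
Azgp1 promoter: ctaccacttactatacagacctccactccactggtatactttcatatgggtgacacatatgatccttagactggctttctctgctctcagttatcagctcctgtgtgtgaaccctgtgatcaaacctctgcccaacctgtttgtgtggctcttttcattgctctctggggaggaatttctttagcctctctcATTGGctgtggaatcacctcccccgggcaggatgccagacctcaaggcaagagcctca
The match is CCAAT on the reverse strand, from 58 to 54 bases before the start. CCAAT was found on either strand in 33.8% of 32851 RefSeq promoter windows of the same length. TGTTCT, the half-site that glucocorticoid and androgen receptors share, was not in this window on either strand, against 16.1% of the windows. The TATA box TATAAA was not in it either, against 12.4%.

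Each value is the log2 ratio between both channels of 1 array. Which channel is the numerator is not given in the sources used here, so a sign says on which side of W5 a kidney lay and not whether its level was higher or lower. The sign was turned on the arrays with W5 in channel 1, and positive values lie on the side of W5 where Azgp1 lay in W2. As deposited, the Azgp1 ratios of W2 changed sign with the channel, from 0.97 and 1.14 with W2 in channel 1 to -0.72 and -0.76 with W5 there. Each array had values for 80.2% to 91.1% of its probes, and Azgp1 had one on all 16. The labels name no second sample of a mouse, so the spread among its arrays is taken as technical. The precision is limited by 4 arrays per mouse and by 5 animals. In whole kidney RNA, fewer cells of a type and less RNA per cell cannot be told apart. Ratios carry no absolute level, so whether a marker is present or absent in the tissue could not be read from them.

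Azgp1 lay far from W5 in W2, close to it in W3, between these in W4, and on the other side in W1. In W2 the turned log2 ratios of arrays 1 to 4 were 0.97, 0.72, 1.14 and 0.76. In W4 they were 0.58, 0.21, 0.27 and 0.18. In W3 they were 0.05, -0.07, 0.01 and -0.10. In W1 they were -0.29, -0.68, -0.40 and -0.64. All arrays of W2 and W4 were thus positive, all of W1 were negative, and those of W3 fell on both sides of 0. Within its own array, Azgp1 stood above at least 99.2% of the tested probes on each W2 array and above at most 6.77% of them on each W1 array.

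**Figure D1:**
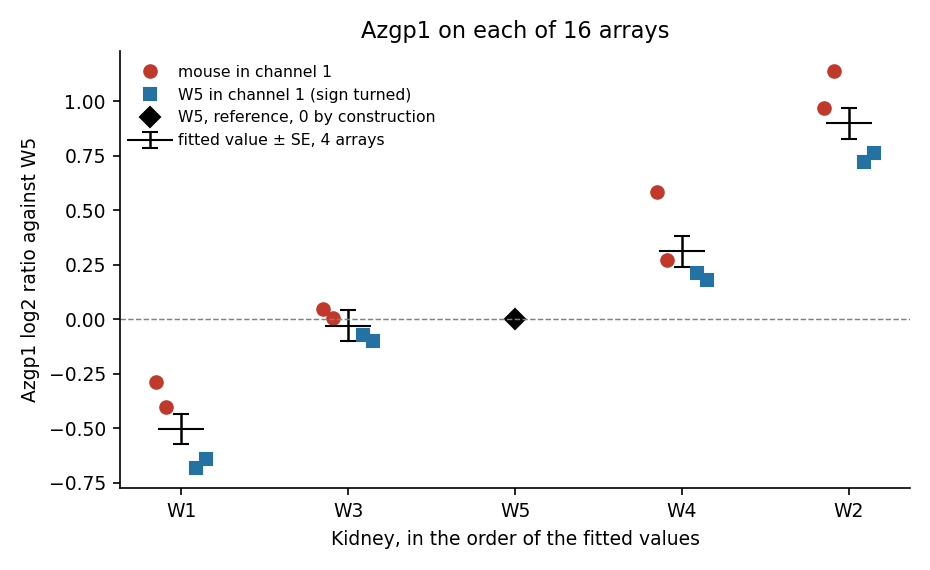
Azgp1 log2 ratio against W5 (vertical axis) for each kidney (horizontal axis). Circles are arrays with the mouse in channel 1, and squares are arrays with W5 in channel 1 after turning the sign. Bars are the fitted value ± limma's moderated SE, with 4 arrays per mouse, and the diamond is W5 at 0. The W2 arrays lie between 0.72 and 1.14, the W1 arrays between -0.68 and -0.29, and circles lie above squares in all 4 mice.

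A linear model with 1 term per mouse and a gene-specific dye term gave fitted log2 ratios of 0.90 ± 0.07 (SE, n = 4 arrays) in W2, 0.31 ± 0.07 in W4, -0.03 ± 0.07 in W3 and -0.50 ± 0.07 in W1. From the negative to the positive side the order was therefore W1, W3, W5, W4 and W2. W3 and W5, neighbours in this order, were 0.03 apart, which is within the SE of 0.07, and the W3 arrays spread over both sides of W5. W5 and W4 were 0.31 ± 0.07 apart, W1 and W3 0.48 ± 0.10, and W4 and W2 0.59 ± 0.10. Array values overlapped in 1 of the 10 pairs of kidneys, W3 with W5. W2 and W1 were the outermost, 1.4 ± 0.10 apart, or 2.64-fold. Against W5 alone the fold was 1.86 for W2 and 1.42 for W1, in opposite directions. The mean of W1 to W4 was 0.17 ± 0.59 (SD, n = 4 mice), so the 4 littermates had no common side of W5.

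The channel that held the mouse shifted Azgp1 in the same sense in all 4 mice. With the mouse in channel 1, the mean of the 2 arrays was more positive than with W5 in channel 1 by 0.32 in both W1 and W2, by 0.11 in W3 and by 0.23 in W4. The fitted dye term was 0.24 ± 0.07, larger in size than that of 76.8% of the named genes, whose median size was 0.14. It moved single levels but not the distance between the outer kidneys. On the arrays with the mouse in channel 1, W2 was at 1.06 and W1 at -0.35, and on those with W5 in channel 1 they were at 0.74 and -0.66. The range over the 5 kidneys was 1.4 in either orientation alone. W3 was at 0.03 and -0.08 in the 2 orientations, so its side of W5 depended on the channel. The largest gap between arrays of the same mouse and orientation was 0.31, in W4 with the mouse in channel 1, while arrays with W5 in channel 1 agreed within 0.04 in each mouse.

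Set beside other genes, Azgp1 joined a wide range to a small array spread. One probe was taken for each of 8005 named genes that had at least 3 values in each mouse. Azgp1 ranked 10 by range over the 5 kidneys, between Cyp4a14, a fatty acid omega-hydroxylase, at 1.63 and Hspa1a, the inducible Hsp70, at 1.38. The median range of named genes was 0.23. The SD of Azgp1 over the 5 kidneys was 0.52, against a median of 0.09. Its residual SD over arrays was 0.096, against a median of 0.183, and only 3.24% of named genes had a smaller one. Hspa1a, of nearly the same range, had a residual SD of 0.517. These ranks describe the values by which the gene was chosen.

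**Figure D2:**
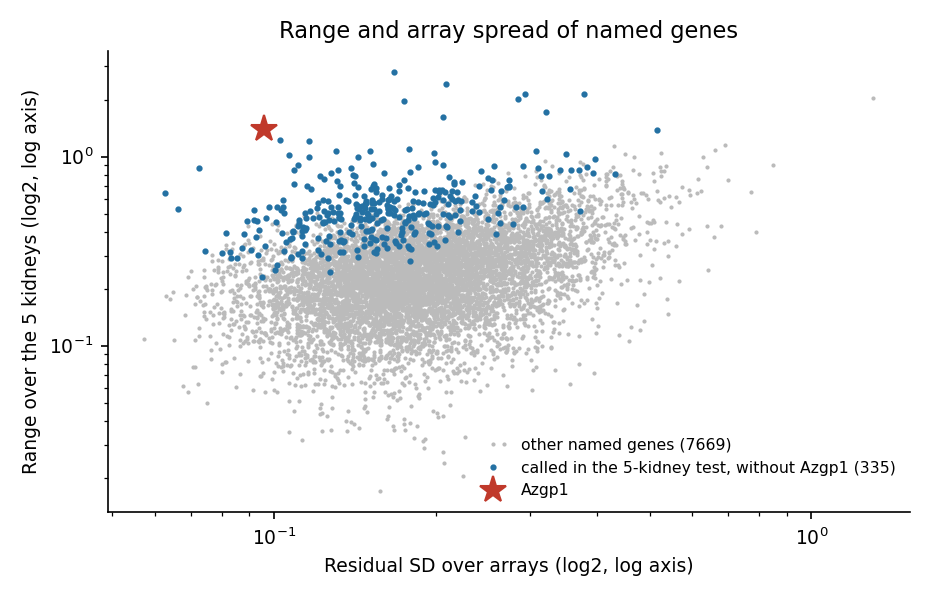
Range over the 5 kidneys (vertical, log2 units on a log axis) against the residual SD over arrays (horizontal, log2 units on a log axis) for 8005 named genes, with those called in the 5-kidney test in blue. Azgp1 (star) lies at a range of 1.4 and a residual SD of 0.096, at the upper left edge of the cloud.

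The next comparison asked which other genes followed the kidneys in the pattern of Azgp1. The 5-kidney test was limma's moderated F test that no kidney differs from the others. A gene can pass it because W5 alone stands apart. The test called 336 of 8005 named genes (4.2%) at an adjusted p under 0.05. Among the 335 besides Azgp1, the 8 whose fitted values over the 5 kidneys had the highest Pearson r with Azgp1 were Cdk5rap1, Erbb3, Itga1, Ccn2, Ddt, Mmrn2, Bmp6 and Tgtp1, with r from 0.93 to 0.89. The values share W5 and the arrays, and 5 points give high r easily. In all, 3 of the 335 called genes (0.896%) had r over 0.9, against 3.3% of all other named genes.

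Cdk5rap1, which modifies mitochondrial transfer RNAs, lay at 0.45 ± 0.08 in W2, 0.20 in W3, 0.14 in W4 and -0.20 in W1 (r = 0.93). Erbb3, a receptor of the epidermal growth factor receptor family that binds neuregulins, lay at 0.57 ± 0.08 in W2, 0.19 in W4, 0.06 in W3 and 0.01 in W1 (r = 0.92). Their ranges of 0.65 and 0.57 were well under the 1.4 of Azgp1. Itga1, the alpha-1 integrin subunit that binds collagen, had a range of 0.36 and was called at the threshold (limma adjusted p = 0.0478). Ccn2, a matricellular protein induced by TGF-beta, came closest to Azgp1 in size among the 8, with 0.77 ± 0.09 in W2, 0.68 in W4, 0.14 in W3 and -0.05 in W1. Ccn2 therefore set W2 and W4 together, while Azgp1 kept them 0.59 apart.

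Ddt, a relative of the cytokine MIF, reached 0.43 in W2 and -0.19 in W1, and Bmp6, a bone morphogenetic protein that controls iron handling, 0.45 in W2 and -0.25 in W1. Mmrn2, an endothelial matrix protein, and Tgtp1, an interferon-induced GTPase, had ranges of 0.43 and 0.57. Over all 16 turned arrays, the r of these 8 genes with Azgp1 ran from 0.85 for Erbb3 to 0.52 for Ddt. Ranked by that measure, 5 of the 8 stayed among the first 8. Itga1, Bmp6 and Tgtp1 lost their 5-kidney call in 18 of 23, 16 of 22 and 14 of 22 alternative settings, Mmrn2 in 9 and Ddt in 5 of 23, Cdk5rap1 in 1, and Erbb3 and Ccn2 in 0.

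The 4 genes of lowest r were Fam25c (-0.95), Plin4 (-0.90), Acy1 (-0.89) and Ttr (-0.87). Acy1, an aminoacylase that frees amino acids from their N-acetyl forms, lay at -0.99 ± 0.08 in W2 and -0.53 in W4, while W1 (-0.08) and W3 (0.00) stayed near W5. Plin4, a coat protein of lipid droplets, lay at -0.46 ± 0.09 in W2, -0.29 in W4, -0.18 in W3 and -0.02 in W1. Ttr, the transthyretin that carries thyroid hormone and retinol-binding protein, lay at -0.54 ± 0.08 in W2, -0.47 in W4, -0.28 in W3 and 0.05 in W1, but its other probe was not called (range 0.16, limma adjusted p = 0.907). In all 4 genes W1 lay within 0.08 of W5, whereas Azgp1 put W1 at -0.50. Fam25c lost its call in 19 of 23 settings. Over all 16 turned arrays, r with Azgp1 was -0.81 for Acy1, -0.80 for Fam25c, -0.69 for Ttr and -0.59 for Plin4. Ranked by that measure, 2 of the 4 stayed among the 4 lowest.

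**Figure D3:**
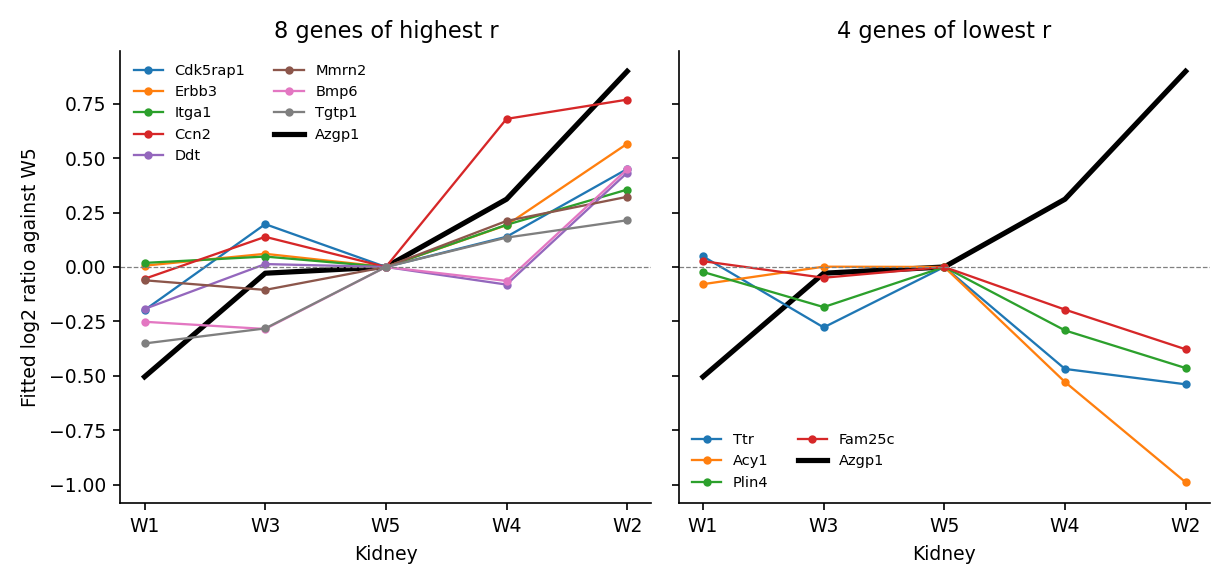
Fitted log2 ratio against W5 (vertical axis) for each kidney (horizontal axis, in the order of Azgp1), with Azgp1 as the thick black line, for the 8 genes of highest r (left) and the 4 of lowest r (right). Azgp1 runs from -0.50 to 0.90, and none of the 8 genes reaches as low in W1 or as high in W2.

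W2 and W1, the outermost kidneys for Azgp1, were then set against each other over all probes with limma's moderated test in the same fit. It called 22 named genes including Azgp1 (0.275%), of which 13 lay on the side of Azgp1 (0.162%) and 9 on the opposite side (0.112%). Azgp1 is itself one of the 13, and its own call is not read, since gene and kidneys were chosen from these values. Of the 12 genes named above, Cdk5rap1 (0.65 ± 0.12, adjusted p = 0.0278), Erbb3 (0.56 ± 0.11, adjusted p = 0.0366), Ccn2 (0.82 ± 0.12, adjusted p = 0.00416) and Ddt (0.63 ± 0.12, adjusted p = 0.0442) passed on the side of Azgp1. Acy1 (-0.91 ± 0.11, adjusted p = 0.000936) and Ttr (-0.59 ± 0.11, adjusted p = 0.0268) passed on the opposite side. The 12 genes had been chosen by their r with Azgp1 over the same fitted values. Their sides therefore followed from the choice, and their calls are not independent evidence of likeness to Azgp1. Ccn2 and Acy1 kept this call in all 23 alternative settings, Erbb3 in 7, Ddt in 9, Ttr in 13 and Cdk5rap1 in 14. The test called 29 probes in all, against 13 without array 3 or without array 4 of W1, and 18 without array 1 or 2 of W1 or array 2 or 4 of W2.

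The genes around Azgp1 on chromosome 5 were called about as often as other genes. Of the 10 nearest named and tested genes on each side, from 137350109 to 138460900 in GRCm38.p6, 1 of 20 was called in the 5-kidney test, against 4.2% of named genes, with 3 at an unadjusted p under 0.05, and limma called 0 in W2 minus W1 (1 at an unadjusted p under 0.05). Their median range was 0.24, as among all named genes at 0.23, and W2 minus W1 ran from -0.38 to 0.27. Cyp3a13, a cytochrome P450 whose gene ends 55.9 kb before Azgp1 starts, was the nearest on one side, with W2 minus W1 at 0.22 ± 0.13 (adjusted p = 0.691). Its order of kidneys was like that of Azgp1 (r = 0.94 over 5 kidneys), but its range of 0.23 was near the median of named genes and it was not called. Smok3a, a testis kinase gene that starts 31.0 kb after Azgp1 ends, was the nearest on the other, at -0.02 ± 0.25. The called neighbour was Mcm7, a subunit of the replicative helicase, at -0.45 in W2 and 0.08 in W4 (range 0.53, limma adjusted p = 0.0202), which is on the side opposite to Azgp1 in W2.

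**Figure D4:**
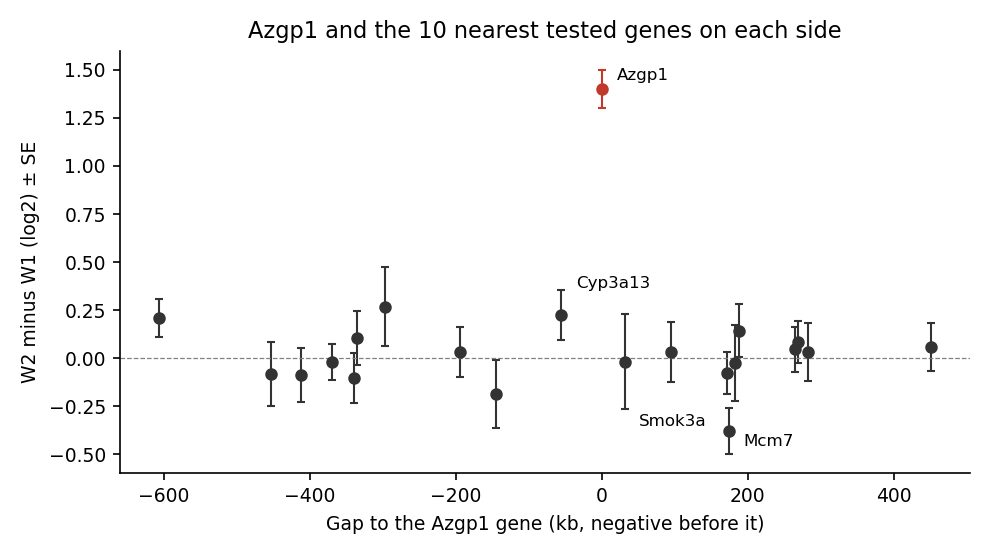
W2 minus W1 in log2 units ± SE (vertical axis) for Azgp1 (red) and the 10 nearest tested genes on each side, against the gap to the Azgp1 gene in kb (horizontal axis). Azgp1 stands at 1.4 and the 20 neighbours lie between -0.38 and 0.27.

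Genes of the processes that zinc-alpha-2-glycoprotein is known for were taken from 8 lists. The lists were drawn up with earlier results of these data known and hold genes already seen to vary, so their called shares are not independent evidence. As background, the 5-kidney test called 4.2% of the 8005 named genes and W2 minus W1 called 0.275%; at the latter share, 0 called genes in a list says nothing about it. In the lipid mobilisation list, 14 of 30 genes were tested and 5 were called in the 5-kidney test (3 without the dye term). W2 minus W1 was above 0 in 4 of the 14, against 53.6% of all named genes. Its median was -0.14, against 0.01 for all named genes. Scd1, the stearoyl-CoA desaturase, was the only member called in W2 minus W1, at 0.62 ± 0.11 on the side of Azgp1 (adjusted p = 0.0268). This call was lost in 8 of 23 settings, without the dye term and without each of 7 arrays. Scd1 was at -0.75 in W1 and -0.13 in W2, and only W4, at 0.12, lay on the positive side of W5. The called members Lpl, Plin4 and Fasn lay farthest from W5 in W2 and on the side opposite to Azgp1. Lpl, the lipoprotein lipase, was at -0.49 ± 0.09 there, and Fasn, which makes palmitate, at -0.41. The other Lpl probes gave -0.47 and -0.64 in W2 and were called too. Ppargc1a, a coactivator of mitochondrial and fatty acid oxidation genes, lay farthest out in W3, at -0.57. Lipe and Pnpla2, the lipases that act on stored fat, were not called, with ranges of 0.16 and 0.31.

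In the MHC class I fold list, 4 of 33 genes were tested and limma called 0 in the 5-kidney test (1 at an unadjusted p under 0.05). The largest range was that of H2-Q10, a secreted class I molecule, at 0.38, with 0.34 in W2 and -0.04 in W1 (limma adjusted p = 0.185). B2m, the beta-2-microglobulin of class I molecules, had a range of 0.23, and Fcgrt, the neonatal Fc receptor, one of 0.24. Of 7 tested genes for class I assembly, 1 was called, against 4.2% of named genes: Tap1, a peptide transporter. It lay at 0.42 in W1, 0.50 in both W2 and W3 but at -0.17 in W4, and lost this call in 8 of 23 settings.

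Several hormone-responsive genes differed among the kidneys. The glucocorticoid responsive list had 6 of 16 tested genes called in the 5-kidney test (37.5%, against 4.2% of named genes), and limma called 0 in W2 minus W1 (3 at an unadjusted p under 0.05), whose median was 0.15. Nr3c1, the glucocorticoid receptor, lay at 0.47 in W4, 0.38 in W2, 0.34 in W1 and 0.17 in W3, each on the positive side of W5. Hsd11b1, which regenerates active glucocorticoid, reached 0.71 in W2 and was at 0.46 in W1, 0.28 in W4 and 0.19 in W3. Fkbp5, a co-chaperone of the receptor, was negative in W2 and W1 alike, at -0.39 and -0.31. Cdkn1a, a cell cycle inhibitor, was at -0.45 and -0.53 in these mice, and Errfi1, a feedback inhibitor of epidermal growth factor receptors, at -0.43 and -0.17. The androgen responsive list, which shares Hsd11b1, had 4 of 8 tested genes called in the 5-kidney test (3 without the dye term), and limma called 0 in W2 minus W1 (2 at an unadjusted p under 0.05). Odc1, which starts polyamine synthesis, was at 0.62 in W3, 0.21 in W1, -0.17 in W4 and -0.28 in W2, and Slc22a7, an organic anion transporter, near -0.5 in W2 (-0.53) and W4 (-0.50) but near 0 in W1 (-0.05) and W3 (0.02). Cndp2, a dipeptidase, had a range of 0.34 and lost its call in 14 of 23 settings, and its other probe was not called (adjusted p = 0.0772).

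In the fibrosis and matrix list, 22 of 33 genes were tested. The 5-kidney test called 5 of them (3 without the dye term), against 4.2% of named genes. W2 minus W1 was above 0 in 15 of 22, against 53.6% of all named genes, with a median of 0.09. Ccn2, described above, was the only member called in W2 minus W1. Fbln5, an elastic fibre protein, was positive in W1 to W4, with W2 (1.22 ± 0.07) and W4 (1.21) above W1 (0.70) and W3 (0.48). It missed the W2 minus W1 threshold (0.52 ± 0.10, limma adjusted p = 0.0527). Dcn, the collagen-binding proteoglycan decorin, stood near 0 in W1 (0.01), with 0.44 in W2 and 0.47 in W4, and lost its call in 6 of 23 settings. Timp2, an inhibitor of metalloproteinases, and Col3a1, a fibrillar collagen gene, had ranges of 0.38 and 0.36 and W2 minus W1 at -0.07 and -0.11, and the second Timp2 probe was not called (adjusted p = 0.661). Col3a1 lost its call in 12 of 23 settings, the replicate block among them. Tgfb2 and Tgfb3 were not called, nor was Acta2, the smooth muscle actin of myofibroblasts, at a range of 0.28.

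Zinc handling genes had 1 of 16 tested members called (6.25%), close to the 4.2% of all named genes. The called one was the metallothionein gene Mt2. It was negative in all 4 mice, between -0.44 in W4 and -0.25 in W1. Secreted plasma and urinary proteins had 8 of 24 called in the 5-kidney test, against 4.2% of named genes, with 2 in W2 minus W1 on the side of Azgp1 and 1 on the opposite side. The former were Serpina1e (0.92 ± 0.12, adjusted p = 0.00177) and Serpina1b (0.94 ± 0.18, adjusted p = 0.0460), protease inhibitors of the alpha-1-antitrypsin family whose probes may bind several members. Serpina1b lost this call in 15 of 23 settings, the replicate block among them, and Serpina1e in 1. Both were above 1.2 in all 4 mice, so that W1 lay on the opposite side of W5 from where Azgp1 had it. The latter was Ttr. Pigr, which carries immunoglobulins across epithelia, lay at -0.44 in W1 and -0.15 in W2, and Clu, the extracellular chaperone clusterin, at -0.45 in W4. Clu lost its 5-kidney call in 16 of 23 settings, and the list had 5 to 11 called over the settings, 5 without the dye term.

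Markers of cell types that a kidney extract can hold were read in the same way. Their lists too were drawn up with earlier results of these data known, so called shares are not independent evidence. As background, the 5-kidney test called 4.2% of named genes. Endothelial markers had the largest median W2 minus W1 of the 11 marker lists, 0.39, with medians over 7 genes of 0.40 in W2, 0.26 in W4, 0.04 in W3 and 0.03 in W1. Their W2 minus W1 was above 0 in 6 of 7 genes, against 53.6% of all named genes, and ran from -0.15 to 0.75. In that contrast limma called 0 of them (4 at an unadjusted p under 0.05), and the 5-kidney test called 3. Esm1, an endothelial proteoglycan, was at 0.54 in W2 and 0.74 in W4, Emcn, a sialomucin of endothelial cells, at 0.51 and 0.59, and Egfl7, a secreted vascular factor, at 0.45 and 0.26. The part of these cells in the Azgp1 values was not tested. Leukocyte markers had 2 of 8 called, H2-Aa and H2-Eb1, at 0.46 and 0.38 in W2 and 0.46 and 0.44 in W4, and a median W2 minus W1 of 0.22. The MHC class II genes H2-Aa, H2-Ab1 and H2-Eb1, together with Cd74, had W2 minus W1 from 0.34 to 0.43. Lyz2 was at 0.11, and Cd79a, Ptprc and Cd68 were at -0.04, -0.06 and -0.17. These genes were singled out after their values were seen.

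Liver markers, of interest because liver makes much of the protein, had 0 of 5 called by limma in the 5-kidney test (3 at an unadjusted p under 0.05) and a median W2 minus W1 of -0.01, and albumin (Alb) lay at 0.05 in W2 and 0.06 in W1. Adipocyte markers had 5 of 6 called in the 5-kidney test, against 4.2% of named genes. Their medians were negative in W1 to W4, at -0.48 in W3, -0.35 in W2, and -0.23 in both W1 and W4. Fabp4, the adipocyte fatty acid binding protein, was at -0.67 in W2 and -0.47 in W1, and Cidec, a lipid droplet protein, at -0.36 and -0.37. Proximal tubule markers had 5 of 11 called with a median W2 minus W1 of 0.00. They moved both ways. Slc13a3, a dicarboxylate carrier, lay at -0.27 in W2 and 0.07 in W1, and Aqp1, a water channel, at 0.17 and -0.29. Gramd1b, a sterol transfer protein, was negative in all 4 mice, between -0.46 and -0.18.

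In the remaining marker groups limma called 0 genes in W2 minus W1, where 1 collecting duct, 2 glomerulus and 1 smooth muscle and stroma markers had an unadjusted p under 0.05. Against 4.2% of named genes called in the 5-kidney test, collecting duct markers had 3 of 6. Among them was the vasopressin-regulated water channel gene Aqp2, at 0.05 in W2 and -0.36 in W1. Slc26a4, the anion exchanger pendrin, was at 0.38 and 0.15 in these mice, and Foxi1, a regulator of intercalated cells, at -0.27 and -0.05. Glomerulus markers had 3 of 5, with Podxl, a podocyte surface protein, at 0.68 in W2 and 0.40 in W1, Ehd3 at 0.36 and 0.08, and Npnt, a matrix ligand of integrins, at -0.15 and -0.14. Ehd3 kept its call in 16 of 23 settings, and a further probe for it did not pass (limma adjusted p = 0.624). Loop of Henle and distal tubule markers had 2 of 5, Sfrp1, a secreted Wnt inhibitor, at -0.18 and -0.02, and Emx1 at -0.27 and -0.20. Emx1 lay between -0.28 and -0.20 in W1 to W4 and lost its call in 6 of 23 settings. Sfrp1 lost its call in 16 of 23 settings. Smooth muscle and stroma markers had 3 of 8, with Mgp, an inhibitor of calcification, at 0.29 in W2 and 0.32 in W1 and Mylk, the myosin light chain kinase, at 0.32 and 0.16. Mylk lost its call in 17 of 23 settings. In the 5-kidney test limma called 0 of 3 adrenal markers (1 at an unadjusted p under 0.05) and 0 of 2 red blood cell markers (also 0). Scd1 in the adipocyte list was the only one of all the markers that passed in W2 minus W1, a call lost in 8 of 23 settings. Without the dye term the 5-kidney counts fell to 1 for the collecting duct, glomerulus, loop of Henle and distal tubule, and smooth muscle and stroma lists and to 3 for the proximal tubule, and with the replicate block smooth muscle and stroma had 1. Over all settings the loop of Henle and distal tubule list had 0 to 3 called.

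**Figure D5:**
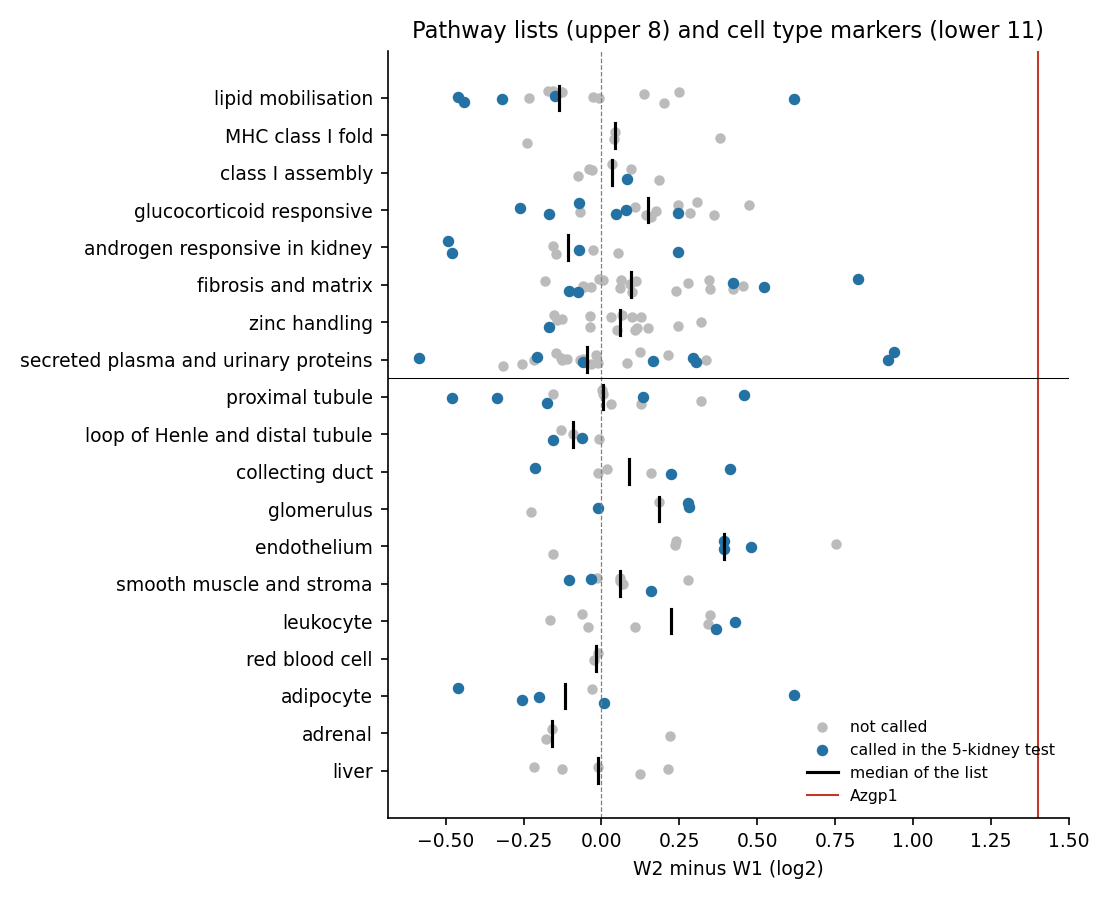
W2 minus W1 in log2 units (horizontal axis) for each tested gene of the 8 pathway lists and 11 marker lists (rows), blue where the gene was called in the 5-kidney test, with a bar at the list's median and a red line at Azgp1. No listed gene reaches the 1.4 of Azgp1; the farthest is Serpina1b at 0.94.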

How the data were processed

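Per the labels, the authors scanned the slides with a GenePix scanner, subtracted background from mean intensities and scaled each array to a median ratio of 1. The deposited values are log2 ratios; the log base is not given in the sources used here and was settled from the values, since steps between low values fitted log2 of small whole-number ratios (within 2e-06, in 1.55% to 4.9% of an array's values) and fitted other bases in at most 0.123%. The filter behind empty cells and the dye of each channel are not given. Gene names came from the platform annotation: 11723 had 1 gene, 806 several and 7676 none here. RefSeq's GRCm38.p6 table gave gene positions.

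The sign was turned on arrays with W5 in channel 1. With limma (3.58.1, R 4.3.3), 4 mouse terms and a gene-specific dye term were fitted to the 15715 probes that had at least 3 values in each mouse. The F test over the 4 mouse terms and the two-sided test of W2 minus W1 were adjusted by Benjamini-Hochberg over these probes. The tests concern these extracts, not a population of mice. The fit was run on simulated data with independent noise on each array, which cannot speak to noise shared by same-numbered arrays. Where a gene has several probes, the one measured on most arrays was used. The gene, the lists and the choice of W2 minus W1 were made with earlier results of these data known. Genes were named by a rule: the 8 of highest and 4 of lowest r with Azgp1 among the called, called list genes by range (at most 5 a pathway list and 4 a marker list; in a pathway list with none called, the gene of lowest p), called neighbours and the nearest one on each side. Genes named for their role though not called (Lipe, Pnpla2, B2m, Fcgrt, Tgfb2, Tgfb3, Acta2 and Alb) were added after their values were seen. Alternatives were the dye term, array weights, a replicate block, centring, scaling, the filter, and leaving out each array.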

Additional observations from a re-analysis of the deposited data

Results flagged for a closer look

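Azgp1 was positive on all 4 arrays of W2 and negative on all 4 arrays of W1, which places these kidneys on opposite sides of W5, 1.4 apart on the log2 scale. W4 was likewise positive on all its arrays, 0.82 from W1. No test of these differences is read, since the gene was chosen from them. No array of Azgp1 stood apart from the others of its mouse by Dixon's ratio at the 95% level; the highest ratio was 0.772, in W4.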

How the results depend on the processing

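The Azgp1 range of 1.4 stayed within its residual SD of 0.096 under every alternative run. It ran from 1.36 to 1.44 when arrays of W1 or W2 were left out in turn. Without the dye term, with the replicate block or without an array of W3 or W4, the balanced design kept it from changing. Those runs therefore say nothing about its stability. Without the dye term the 5-kidney test called 403 probes in place of 629 and W2 minus W1 17 in place of 29; with array weights W2 minus W1 called 74. Leaving out each array gave 457 to 671 probes and 13 to 34. The lowest W2 minus W1 counts came without W1 replicate 3 or 4 (13 each), and without W1 replicate 1 or 2 or W2 replicate 2 or 4 it was 18. Of the 8 genes most like Azgp1, 5 were shared when ranked over the 16 arrays, and of the 4 most opposite, 2. Same-numbered arrays of different mice had deviations correlated at 0.0863 to 0.335, with 3 of 24 pairs under 0.1. Of 16 arrays, 12 correlated best with their own number, but odd and even numbers differ in orientation. With the mean of each mouse and orientation removed, 10 of 16 still did, at a median r of 0.061 (-0.071 to 0.205). With 2 arrays per mouse and orientation, such deviations mirror each other, so these arrays and pairs are not independent. The main fit did not pair arrays by number, and whether the numbers stand for a batch was not tested. With the replicate block the Azgp1 range was 1.4, as the design fixes, and the tests called 591 and 32 probes.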
